A study of Mus musculus with 12 samples.

Results

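The genes described here encode cytokines, chemokines and their receptors: interleukins, interferon receptors, tumour necrosis factor (TNF) ligands, chemokines and their receptors, and the ligands and receptors of the transforming growth factor beta (TGF-beta) and bone morphogenetic protein (BMP) family. They were chosen by gene symbol, as every probe set of the array whose single platform symbol begins with the name of one of these families, with Tgfbr3 and Ccl25 left out. The rule found 48 genes of the 9607 with such a symbol, on 62 of 22511 probe sets that were no controls. Each gene was read from 1 probe set, the brightest by its mean over the 12 arrays. RNA was measured in sorted thymocytes of B10 mice aged 6 to 8 weeks, untreated, on Affymetrix MOE430B arrays. The 4 groups of 3 biological replicates were CD4+ single-positive cells of TCR:HEL mice, the same cells of TCR mice, double-positive cells of TCR:HEL mice, and double-positive cells of TCR mice. All mice carried a transgenic T cell receptor (TCR). The TCR:HEL mice carried it together with HEL, and the labels tie their single-positive cells to negative selection, those of TCR mice to positive selection, and all double-positive cells to the stage before selection. The promoters of the transgenes and whether the mice also made receptors of their own are not given in the sources used here, and the design text of the series calls 1 kind of mouse simply B10.

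Double-positive thymocytes carry both CD4 and CD8, depend on contacts with the thymic stroma, and become single-positive cells once their receptor binds self peptides weakly, whereas strong binding leads to deletion or diversion. Interleukin and interferon receptors signal through JAK kinases and STAT factors, TNF and IL-1 family receptors through TRAF and IRAK adaptors, chemokine receptors through Gi proteins, and TGF-beta and BMP receptors through SMAD proteins. In the thymus, the chemokine receptor CCR9 responds to CCL25 of the epithelium, cytokines of the gamma-chain and gp130 families act on maturing cells, and type I interferon is made tonically by the medulla. The genes found by the rule held no receptor of the gamma-chain family, no TNF receptor, and neither Cxcr4 nor Ccr7. The results do not cover these receptors.

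Array medians of the MAS5 signal, a probe set's summarized brightness on a linear scale, lay between 62.9 and 81.3, and arrays of the same group correlated at r = 0.816 to 0.892 over log2 signals. Cd8a, which marks the double-positive stage, had 986, 1558 and 809.8 in TCR:HEL single-positive cells, 731, 705 and 516 in TCR single-positive cells, 5531, 5188 and 6118 in TCR:HEL double-positive cells, and 6684, 8034 and 7217 in TCR double-positive cells. No Cd4 probe set was among those analysed here. Arpp21, the other double-positive marker on the array, averaged 102 in TCR:HEL single-positive, 24.5 in TCR single-positive, 292 in TCR:HEL double-positive and 156 in TCR double-positive cells. It fell in single-positive cells of TCR mice (-2.24, limma adjusted p = 0.00524), while its differences of -1.37 between the stages in TCR:HEL mice (adjusted p = 0.128) and of 1.71 between TCR:HEL and TCR single-positive cells (adjusted p = 0.151) missed the threshold. Its part in the results was not tested. Replicate 1 of 3 groups, all but TCR:HEL double-positive cells, had Gapdh 5' to 3' ratios of 0.0379 to 0.107, against 0.195 to 0.453 on the other arrays. Degraded RNA lowers this ratio. The arrays were hybridized in 3 periods. Period 1 held replicate 1 of both single-positive groups, period 3 held TCR:HEL single-positive replicates 2 and 3, TCR single-positive replicate 3 and TCR:HEL double-positive replicate 3, and period 2 held the other 6 arrays. Stage and period therefore largely coincided.

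Of the 48 genes, 30 passed the filter, which asked for a signal above the array's own median on at least 3 arrays. That is 62.5% of the genes, against 60.9% of all probe sets. The genes that passed were Il16 among 3 interleukin ligands, 12 of 19 interleukin and interferon receptor chains, both TNF ligands, 3 of 6 chemokines, both chemokine receptors, 4 of 5 TGF-beta and BMP ligands, 2 of 6 receptors of that family, the receptor chain gene Csf2rb, and 3 of 4 genes whose symbols match a family name but which encode no cytokine or receptor. On all 12 arrays 16 genes were above the array median, and 14 were above it on none. The highest mean signals over the 12 arrays were those of the probe sets of Il6st (1044), Tgfbrap1 (993), Ifnar2 (697), Bmpr2 (443), Tgfb1 (309), Ifnar1 (289.8), Tnfsf10 (271), Ccr9 (238), Cxcl1 (236) and Bmp2k (234). Probe sets differ in how brightly they bind, so these values give no order of transcript levels between genes.

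**Figure D1:**
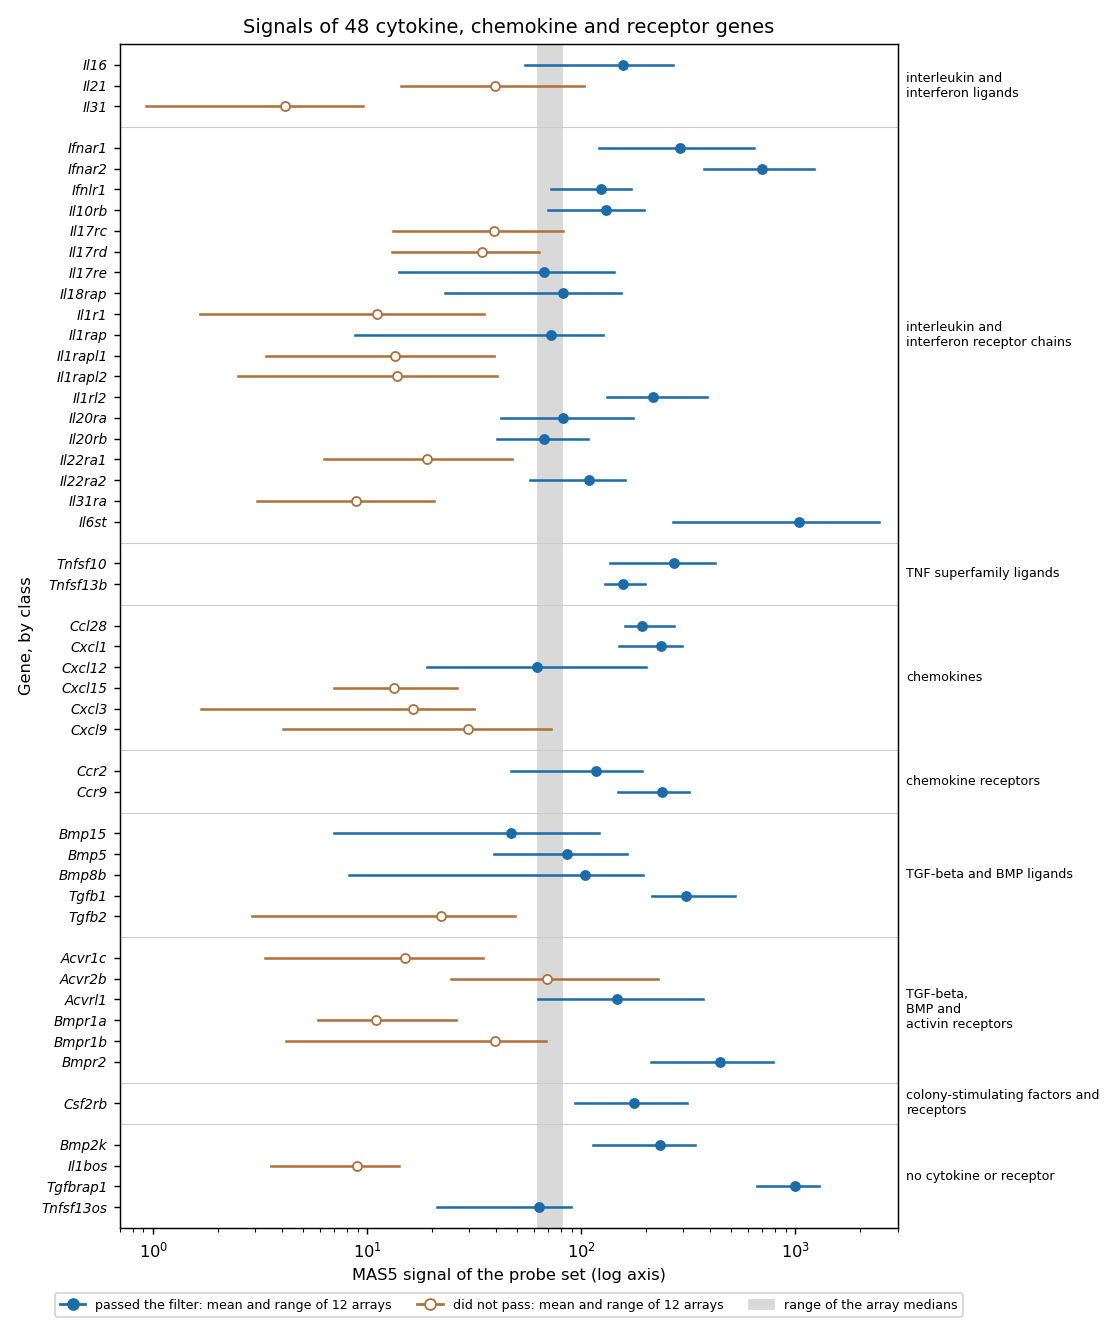
MAS5 signal of the probe set of each of the 48 genes on a log axis, grouped by class. Points are means and lines ranges over the 12 arrays, filled where the gene passed the filter, and the grey band runs from the lowest array median (62.9) to the highest (81.3). The 18 open points are genes that did not pass, among them the IL-1 receptor gene Il1r1 and the type I BMP receptor gene Bmpr1a.

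Groups were compared with limma on log2(signal + 16), on which changes of dim genes come out too small. A gene was called at a Benjamini-Hochberg adjusted p under 0.05 over all 13703 probe sets that passed. Only Acvrl1 was called, in a single comparison, that of the stages in TCR mice. None of the 30 genes was called between TCR:HEL and TCR single-positive cells, where 0.219% of all probe sets were called, or between TCR:HEL and TCR double-positive cells, where 0% were. None was called between the stages in TCR:HEL mice (1.98% of all probe sets), or in the interaction of HEL and stage (0.0073%). Acvrl1 and Ifnar1 were highest, and Ccr9 lowest, on the 3 TCR single-positive arrays.

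Acvrl1 encodes ALK1, a type I receptor that binds BMP9 and BMP10 and is best known from endothelial cells. Its signal was 115, 155 and 91.5 in TCR:HEL single-positive cells, 369.7, 266 and 239 in TCR single-positive cells, 96.8, 62.7 and 79.8 in TCR:HEL double-positive cells, and 89.8, 80.7 and 107 in TCR double-positive cells. Each of the 3 TCR single-positive arrays was above each of the other 9 arrays, which holds for 1.38% of all probe sets tested, and the other 3 groups overlapped in part. In TCR mice Acvrl1 rose in single-positive over double-positive cells, with 291 ± 69.1 in single-positive and 92.6 ± 13.6 in double-positive cells (SD, n = 3 each). The log2 fold change was 1.49 ± 0.28 (SE, 95% interval 0.88 to 2.09) with a limma adjusted p of 0.00637. It was the only gene of the 30 called there (3.33%), where 3.53% of all probe sets were called, 1.12% of them higher and 2.42% lower. In TCR:HEL mice the same comparison gave 0.50 (-0.10 to 1.10, adjusted p = 0.527). Between single-positive cells of TCR:HEL and TCR mice the log2 fold change was -1.18 ± 0.28 (-1.78 to -0.57), and its adjusted p of 0.146 missed the threshold. The difference between the 2 stage effects of Acvrl1 was -0.99 (-1.84 to -0.13, adjusted p = 0.998), so an effect of antigen on its stage difference was not called.

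The call of Acvrl1 was lost with hybridization period as a block (1.39, adjusted p = 0.0688) and without the 3 arrays of lowest Gapdh ratio (1.29, adjusted p = 0.0903). Within period 2, the only period with both stages of TCR mice, the difference was 1.38 from 1 single-positive and 3 double-positive arrays. Between TCR:HEL and TCR single-positive cells it was -1.56 in period 1 and -0.91 in period 3. Of 12 markers of thymic epithelium and stroma, 6 were on the array, namely Epcam, Ccl25, Dcn, Foxn1, Pdgfra and Psmb11, none at 0, and 3 passed the filter. The endothelial marker Pecam1 was not among them. Their summed signal was 1334 to 1889 in TCR:HEL single-positive cells and 2329 to 4039 in TCR single-positive cells. It was 1434 to 3227 in TCR:HEL double-positive cells and 739.5 to 2361 in TCR double-positive cells. Most of it came from Epcam, so the sum mainly gives the level of that gene and is no measure of other cells. Of the 3 that passed, the matrix gene Dcn was called in the comparison that called Acvrl1 (1.30, limma adjusted p = 0.0308). Epcam (1.18, adjusted p = 0.244) and Ccl25 (0.21, adjusted p = 0.789) were not called there. Below the filter, means in TCR single-positive and double-positive cells were 39.3 and 60.6 for Foxn1, 17.0 and 24.9 for Psmb11, and 26.7 and 11.2 for Pdgfra. The part of other cells in the result was not tested. In such bulk samples fewer cells of a type and less RNA per cell cannot be told apart.

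Of the other TGF-beta and BMP receptors, only Bmpr2, the type II receptor with which ALK1 pairs, passed the filter. Bmpr2 had 789.7, 530.0 and 419.7 in TCR:HEL single-positive cells, 216, 653 and 362 in TCR single-positive cells, 495, 349 and 211 in TCR:HEL double-positive cells, and 447, 401 and 438 in TCR double-positive cells. The groups overlapped in both stage comparisons and in both antigen comparisons. The stage difference was 0.73 (-0.09 to 1.54) in TCR:HEL mice and -0.19 (-1.01 to 0.62) in TCR mice, with an interaction of 0.92 (adjusted p = 0.998), which was 0.30 without the arrays of period 1. With period as a block the difference in TCR:HEL mice was 1.41 (adjusted p = 0.0720). A second Bmpr2 probe set, of lower signal, correlated with the first at r = -0.63 over the 12 arrays, so the gene's pattern depends on the probe set. The activin and BMP receptor genes Acvr1c, Bmpr1a and Bmpr1b had mean signals of 11.0 to 39.4, and Acvr2b, a type II activin receptor, reached 229 and 175 on 1 array of each single-positive group and at most 61.9 elsewhere.

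Ifnar1 encodes a chain of the type I interferon receptor. It had 341, 121 and 230.2 in TCR:HEL single-positive cells, 642, 359 and 392 in TCR single-positive cells, 241, 194 and 342 in TCR:HEL double-positive cells, and 266, 141 and 209 in TCR double-positive cells. All 3 TCR single-positive arrays were above the other 9, while the other groups overlapped. The log2 fold change of single-positive over double-positive cells of TCR mice was 1.11 ± 0.37 (0.32 to 1.90), with an adjusted p of 0.140. That of TCR:HEL over TCR single-positive cells was -1.02 ± 0.37 (-1.81 to -0.23, adjusted p = 0.534), and -0.65 without TCR:HEL single-positive replicate 2. In double-positive cells it was 0.32 (-0.47 to 1.11), and the interaction was -1.34 (-2.45 to -0.22, adjusted p = 0.998). With period as a block the stage difference in TCR mice was 0.62 (adjusted p = 0.591), and within period 2 it was 0.80. The partner chain Ifnar2, measured by a probe set of a type that can bind similar transcripts, had 669, 401 and 628 in TCR:HEL single-positive cells, 1227, 576 and 375 in TCR single-positive cells, 676, 864 and 559.8 in TCR:HEL double-positive cells, and 902, 528 and 963 in TCR double-positive cells. Ifnar2 groups overlapped in every comparison, and its intervals were -1.04 to 0.61 for the antigen in single-positive cells and -1.08 to 0.57 for the stage in TCR mice. Ifnlr1, the interferon lambda receptor chain, was between 71.9 and 171 on all arrays, with differences of -0.30 to 0.27 in the 4 pairwise comparisons.

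Ccr9, the receptor that holds thymocytes near CCL25-making epithelium, lay on the opposite side. It had 300.1, 203 and 195 in TCR:HEL single-positive cells, 175, 148 and 190.0 in TCR single-positive cells, 308, 261 and 232 in TCR:HEL double-positive cells, and 319, 221 and 298 in TCR double-positive cells. All 3 TCR single-positive arrays were below the other 9, which holds for 1.63% of all probe sets. In TCR mice the stage difference was -0.65 ± 0.26 (-1.21 to -0.09, adjusted p = 0.256), and between TCR:HEL and TCR single-positive cells it was 0.40 (-0.17 to 0.96, adjusted p = 0.823). A second Ccr9 probe set of lower signal ran between 12.3 and 178 and correlated with the first at r = 0.34. On it the TCR single-positive arrays had 149, 13.7 and 12.3, so they were not all below the other 9. Ccr2, the receptor of CCL2, ranged from 46.7 to 193, and all 4 of its group means were between 108 and 138.

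**Figure D2:**
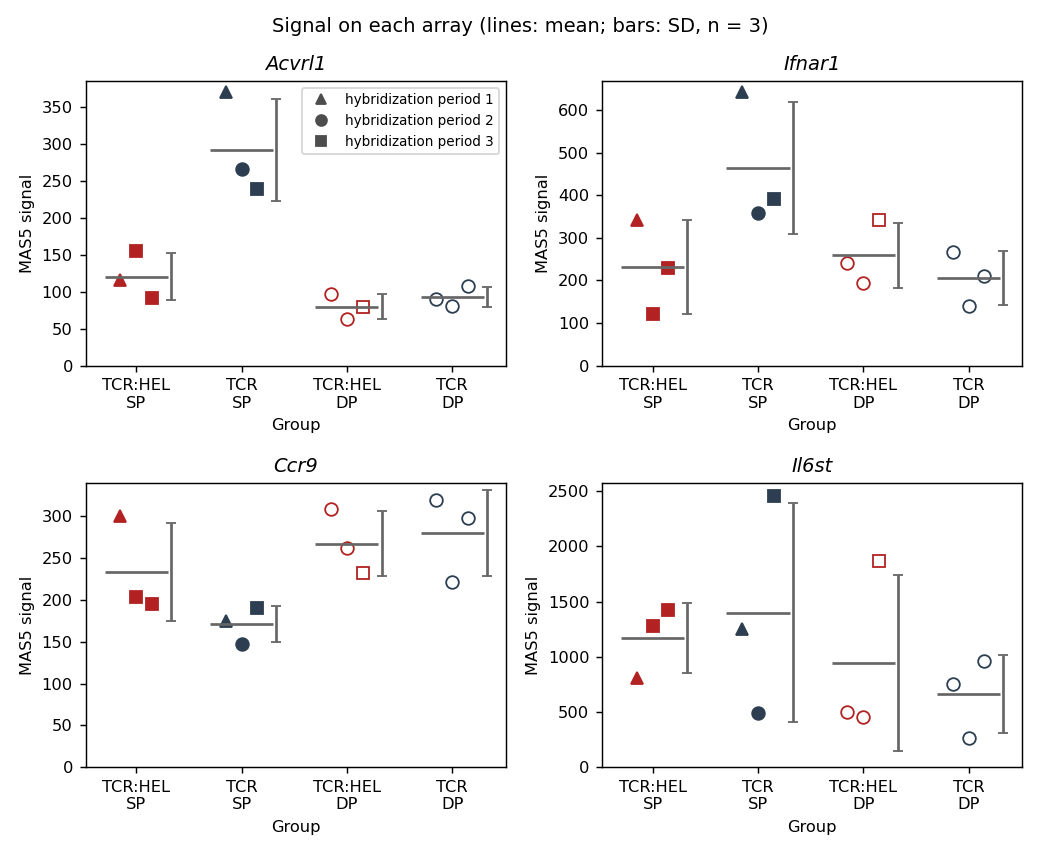
MAS5 signal of Acvrl1, Ifnar1, Ccr9 and Il6st on each array, in TCR:HEL single-positive (SP), TCR SP, TCR:HEL double-positive (DP) and TCR DP cells. Lines are means and bars SDs of 3 arrays, and symbols mark the hybridization period. The TCR SP arrays are above all others for Acvrl1 and Ifnar1 and below all others for Ccr9, and the period 3 squares are the highest for Il6st.

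The upstream sequences of Ifnar1 and Ccr9 are shown because these genes lay at opposite ends on the TCR single-positive arrays. They are the 250 bases before the annotated start, from RefSeq on GRCm38.p6, on the plus strand, 5' to 3', for Ifnar1 at chr16:91484965-91485214 and for Ccr9 at chr9:123766961-123767210. Capitals mark the GC box GGGCGG, searched on both strands.
Ifnar1: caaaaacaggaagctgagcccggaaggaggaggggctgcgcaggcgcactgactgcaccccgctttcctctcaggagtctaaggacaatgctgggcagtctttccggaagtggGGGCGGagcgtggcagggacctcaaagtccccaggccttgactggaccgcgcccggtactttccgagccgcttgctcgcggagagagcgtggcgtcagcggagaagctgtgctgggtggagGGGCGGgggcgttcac
Ccr9: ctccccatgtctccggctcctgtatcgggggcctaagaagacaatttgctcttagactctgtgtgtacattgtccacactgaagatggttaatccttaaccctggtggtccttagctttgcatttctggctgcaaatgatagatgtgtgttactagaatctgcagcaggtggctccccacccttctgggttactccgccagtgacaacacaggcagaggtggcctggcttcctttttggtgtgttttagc
The Ifnar1 window held 2 GC boxes and the Ccr9 window none, against a GC box in 32.7% of the 32851 RefSeq windows of the same length. Of the 48 genes, 43 were in that table, and 19 of them (44.2%) had a GC box in at least 1 window, 7 (16.3%) a TATAAA and 4 (9.30%) a TTCNNNGAA, the core of a STAT site. The shares of all windows were 12.4% for TATAAA and 7.02% for TTCNNNGAA. Some genes have several windows and so more chances of a match. These matches are descriptions of letters only. Acvrl1 was not in the table.

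Among the interleukin receptors, Il6st had the highest spread. It encodes gp130, the signalling chain shared by the receptors of IL-6, LIF and related cytokines. Its signal was 809.8, 1275 and 1426 in TCR:HEL single-positive cells, 1248, 495 and 2460.5 in TCR single-positive cells, 505, 458 and 1865 in TCR:HEL double-positive cells, and 758, 269 and 962 in TCR double-positive cells. The 4 arrays of period 3 had 1275 to 2460.5, above the other 8, which holds for 0.854% of all probe sets, while the arrays of period 1, with 809.8 and 1248, and of period 2, with 269 to 962, overlapped. The stage difference of Il6st in TCR mice was 0.96 (-0.32 to 2.25, adjusted p = 0.538), and -0.14 with period as a block. In TCR:HEL mice it was 0.58, and -0.53 with the block. Between TCR:HEL and TCR single-positive cells it was -0.02, and -0.70 with the block.

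Of the IL-1 receptor family, Il1rap, Il1rl2 and Il18rap passed the filter and Il1r1, Il1rapl1 and Il1rapl2 did not. Il1rap, the accessory chain shared by IL-1, IL-33 and IL-36 receptors, had 41.0, 73.9 and 8.72 in TCR:HEL single-positive cells, 127, 92.0 and 57.6 in TCR single-positive cells, 86.3, 60.8 and 85.2 in TCR:HEL double-positive cells, and 81.1, 84.8 and 66.1 in TCR double-positive cells. TCR:HEL single-positive replicate 3 was the lowest of all arrays, and the groups overlapped. Its difference between TCR:HEL and TCR single-positive cells was -1.05 ± 0.44 (-1.99 to -0.12, adjusted p = 0.612), and -0.54 without that array. A second Il1rap probe set, uncorrelated with the first (r = -0.03), gave -0.40 there. For the stage in TCR:HEL mice the 2 probe sets gave -0.88 and 0.11, opposite in sign. Il1rl2, the IL-36 receptor, had 139, 245 and 135 in TCR:HEL and 200.1, 386 and 225 in TCR single-positive cells, and 204, 197 and 132 in TCR:HEL and 218, 210.4 and 289.9 in TCR double-positive cells. The 2 kinds of mice did not overlap in double-positive cells, with a difference of -0.41 (-1.08 to 0.27), and it was -0.59 (-1.27 to 0.08) in single-positive cells. With period as a block these were -0.21 and -0.39. Il18rap, the accessory chain of the IL-18 receptor, had 130.4, 129 and 23.1 in TCR:HEL and 30.1, 111 and 23.5 in TCR single-positive cells. In double-positive cells it had 101, 23.9 and 54.1 in TCR:HEL and 153, 109 and 101 in TCR mice. Its arrays differed by several fold within every group but TCR double-positive cells. The interaction of 1.58 had an interval of -0.13 to 3.29 and was 0.90 without the 3 arrays of lowest Gapdh ratio.

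The remaining receptor chains bind cytokines of the IL-10 and IL-17 families or, for Csf2rb, GM-CSF, IL-3 and IL-5. Il10rb, shared by the receptors of IL-10, IL-22 and interferon lambda, had 159, 136 and 197 in TCR:HEL single-positive cells, 171, 109 and 124 in TCR single-positive cells, 70.04, 74.1 and 149 in TCR:HEL double-positive cells, and 179.8, 103 and 85.9 in TCR double-positive cells. In TCR:HEL mice the stages overlapped through 1 array, at a difference of 0.71 (adjusted p = 0.402), and 0.27 with period as a block. Il20ra, an IL-20 receptor chain, had a difference of 0.65 (-0.20 to 1.51) between TCR:HEL and TCR double-positive cells, where its means were 117 ± 54.7 and 65.5 ± 20.4 (SD, n = 3 each). It was 0.34 without TCR:HEL double-positive replicate 1 and 1.11 with a block of periods parted by 30 days. Il20rb, Il22ra2, which encodes a soluble IL-22 binding protein, and Il17re, the IL-17C receptor, had differences of at most 0.64 in size in all 4 pairwise comparisons. Csf2rb, the beta chain shared by its receptors, had 149.9, 122 and 102 in TCR:HEL single-positive and 305, 186 and 226 in TCR:HEL double-positive cells. These groups did not overlap, at -0.85 ± 0.33 (-1.56 to -0.13, adjusted p = 0.276). In TCR mice Csf2rb had 167, 157 and 93.9 in single-positive and 143, 144 and 312 in double-positive cells, which overlapped, at -0.42 (-1.13 to 0.29).

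Among the ligands, Il16 and the neutrophil chemokine gene Cxcl1 separated the stages in TCR mice without a call, each on the probe set used. Il16, a CD4-binding cytokine cut from a larger precursor, had 54.6, 189 and 209 in TCR:HEL single-positive cells, 267, 239.8 and 189 in TCR single-positive cells, 135, 104 and 97.7 in TCR:HEL double-positive cells, and 116, 184 and 91.8 in TCR double-positive cells. The 3 TCR single-positive arrays were above the 3 TCR double-positive arrays, at 0.79 ± 0.39 (-0.05 to 1.63, adjusted p = 0.397). TCR:HEL single-positive replicate 1 was the lowest array for Il16, and within period 1 the difference of TCR:HEL from TCR single-positive cells was -2.01, against 0.07 within period 3. A second Il16 probe set of lower signal correlated with the first at r = 0.28. It had 79.6, 51.9 and 84.4 in TCR:HEL and 180, 132 and 99.5 in TCR single-positive cells, which did not overlap, at -0.79 (limma adjusted p = 0.656). On it the stages of TCR mice overlapped, at 0.58 (adjusted p = 0.519). Cxcl1 had 245, 297 and 263 in single-positive and 235, 218 and 233 in double-positive cells of TCR mice, at 0.21 (-0.32 to 0.75). In TCR:HEL mice it had 149, 187 and 247 in single-positive and 287, 214 and 251 in double-positive cells, which overlapped. Its probe set is of a type that can bind transcripts of similar sequence, and a second Cxcl1 probe set correlated with it at r = -0.23.

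Cxcl12, the stromal ligand of CXCR4, had 19.0, 200.4 and 120.2 in TCR:HEL single-positive cells, 26.4, 52.4 and 35.7 in TCR single-positive cells, 36.6, 52.4 and 97.5 in TCR:HEL double-positive cells, and 22.4, 45.4 and 34.4 in TCR double-positive cells. The TCR:HEL single-positive arrays were both the lowest and the highest of all. Their difference of 0.93 from TCR single-positive cells had an interval of -0.30 to 2.15. Cxcl12 passed the filter through 3 arrays only, those with 200.4, 120.2 and 97.5. All of these came from TCR:HEL mice and from period 3. Within period 1 the difference of TCR:HEL from TCR single-positive cells was -0.28 (1 array each). Within period 3 it was 1.73 (2 TCR:HEL arrays and 1 TCR array). Ccl28, a mucosal chemokine, and Tnfsf13b, the B cell survival factor BAFF, had the narrowest spread of the 30 genes, with SDs within groups of 0.18 and 0.20 on the log2 scale, against a median of 0.45 over all probe sets tested. Group means of Tnfsf13b lay within 0.11 of each other, and its 4 pairwise intervals stayed between -0.63 and 0.56. The death ligand gene Tnfsf10, which encodes TRAIL, had 270.1 ± 95.6 in TCR:HEL and 315 ± 97.9 in TCR single-positive cells, and 271 ± 33.0 in TCR:HEL and 226 ± 81.3 in TCR double-positive cells (SD, n = 3 each). Its difference between TCR:HEL and TCR single-positive cells was -0.23 (-0.95 to 0.50), so changes of up to about those bounds could have been missed. A second Tnfsf10 probe set of lower signal, correlated with the first at r = 0.50, gave 0.16 there, opposite in sign (limma adjusted p = 0.961).

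Tgfb1, the TGF-beta of lymphoid cells, had 282 ± 53.3 in TCR:HEL and 349.9 ± 159 in TCR single-positive cells, and 318 ± 50.9 in TCR:HEL and 288 ± 61.2 in TCR double-positive cells. Its 4 pairwise differences were between -0.22 and 0.20. Bmp5 had 164, 83.5 and 94.0 in TCR:HEL single-positive and 39.3, 69.9 and 71.7 in TCR:HEL double-positive cells. These did not overlap, at 0.75 ± 0.34 (0.03 to 1.46, adjusted p = 0.375), and the difference was 0.44 with period as a block and 0.49 without TCR:HEL single-positive replicate 1. The TCR double-positive arrays, with 72.5, 72.8 and 107, were also above those of TCR:HEL mice, at -0.41 (-1.12 to 0.31) for TCR:HEL over TCR, and -0.19 without TCR:HEL double-positive replicate 1. In TCR single-positive cells Bmp5 had 81.9, 64.5 and 103. Bmp8b was at 8.23, 107 and 77.5 in TCR:HEL and 93.9, 193 and 94.7 in TCR single-positive cells, at -1.06 (-2.16 to 0.03, adjusted p = 0.707), with 1 TCR:HEL array, replicate 1, far below the others. Without it the difference was -0.35. Bmp15, known as an oocyte growth factor, was above the array median on 3 arrays, with group means of 28.0 to 66.7.

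Of the 4 genes that encode no cytokine or receptor, Tgfbrap1, a trafficking protein that binds TGF-beta receptors, had 944, 723 and 662 in TCR:HEL single-positive and 1145, 1069 and 951 in TCR:HEL double-positive cells. These did not overlap, at -0.45 (-1.01 to 0.11), and a second probe set that correlated with the first at r = 0.67 gave -0.40. In TCR mice Tgfbrap1 had 1293, 1007 and 736 in single-positive and 1247, 941 and 1194 in double-positive cells, at -0.18. Bmp2k, a kinase induced by BMP2, had differences of -0.58 to 0.40, and Tnfsf13os, a transcript opposite Tnfsf13, of -0.16 to 0.32. Il1bos did not pass.

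The comparison of TCR:HEL with TCR cells asked which of these genes differed between cells under negative and positive selection, and before selection. In single-positive cells 3 genes had an unadjusted limma p under 0.05, namely Acvrl1, Ifnar1 and Il1rap, all lower in TCR:HEL mice. That is 10% of the 30, against 7.19% of all probe sets. Of the 30 genes, 3 (10%) had groups that did not overlap, Ccr9 higher and Acvrl1 and Ifnar1 lower in TCR:HEL cells, against 10.6% of all probe sets. The median log2 fold change was -0.08 over the 30 genes and 0.01 over all probe sets, and 13 genes were positive. In double-positive cells no gene had an unadjusted p under 0.05, against 2.47% of all probe sets. Bmp5 and Il1rl2, 6.67% of the genes, had lower, non-overlapping TCR:HEL groups, against 7.67% of all probe sets. The median there was -0.05, against 0.02 over all probe sets, and the smallest adjusted p was 0.99976.

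**Figure D3:**
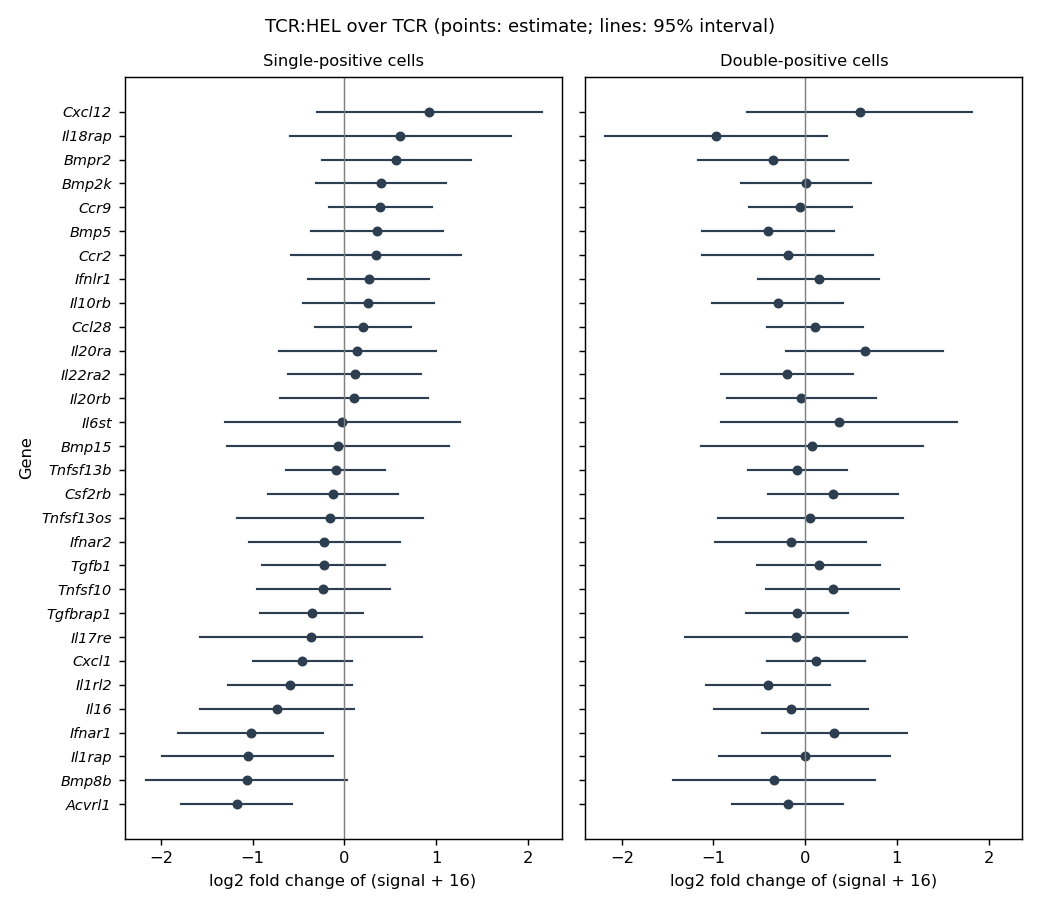
Log2 fold change of TCR:HEL over TCR cells, on the log2(signal + 16) scale, for the 30 genes that passed, in single-positive cells (left) and double-positive cells (right). Points are estimates and lines 95% intervals. In single-positive cells the intervals of Acvrl1, Ifnar1 and Il1rap lie below 0, none of these genes passed the adjusted threshold, and in double-positive cells every interval spans 0.

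The comparison of the stages asked which genes differed between single-positive and double-positive cells. In TCR:HEL mice 2 genes, Csf2rb and Bmp5, had an unadjusted p under 0.05 (6.67%, against 12.4% of all probe sets). The stages did not overlap for 3 genes (10%), Bmp5 higher and Csf2rb and Tgfbrap1 lower in single-positive cells, against 18.6% of all probe sets. In TCR mice 3 genes, Acvrl1, Ifnar1 and Ccr9, had an unadjusted p under 0.05 (10%, against 14% of all probe sets). The stages did not overlap for 5 (16.7%), Acvrl1, Cxcl1, Ifnar1 and Il16 higher and Ccr9 lower in single-positive cells, against 17% of all probe sets. Medians were -0.03 in TCR:HEL and 0.07 in TCR mice, against 0.03 and 0.05 over all probe sets. The comparisons of the antigen in single-positive cells and of the stage in TCR mice share the TCR single-positive arrays, so the values of Acvrl1, Ifnar1 and Ccr9 in them are not independent. In the interaction 2 genes, Ifnar1 and Acvrl1, had an unadjusted p under 0.05 (6.67%, against 4.44% of all probe sets).

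**Figure D4:**
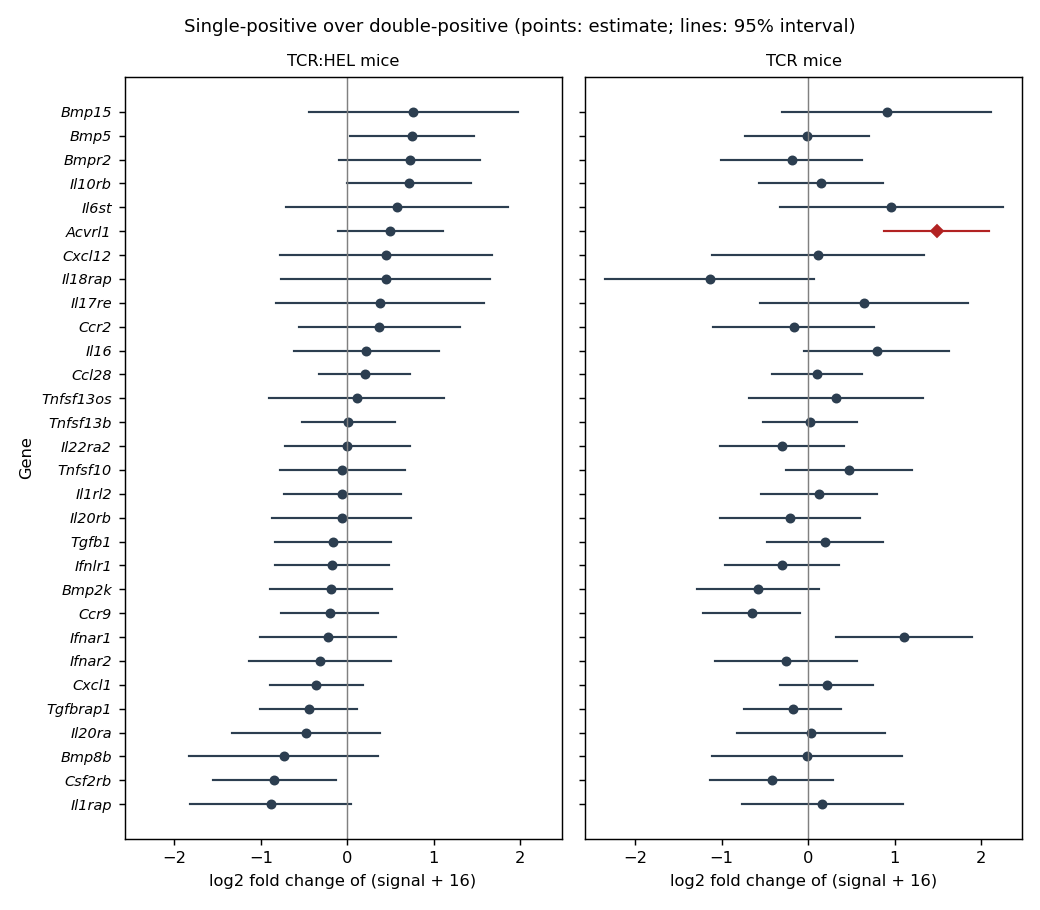
Log2 fold change of single-positive over double-positive cells, on the log2(signal + 16) scale, for the 30 genes that passed, in TCR:HEL mice (left) and TCR mice (right). Points are estimates and lines 95% intervals, and the red diamond marks the only call, Acvrl1 at 1.49 (0.88 to 2.09) in TCR mice.

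With 3 arrays per group the 95% intervals of the pairwise comparisons reached between 0.53 and 1.29 to either side of the estimate, with a median of 0.76. The interval lay wholly within 1 log2 unit of 0 for 13 of the 30 genes for TCR:HEL over TCR single-positive cells, 14 for TCR:HEL over TCR double-positive cells, 11 for the stage in TCR:HEL mice and 10 for the stage in TCR mice. For the other genes it reached past 1 in at least 1 direction.

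The 18 genes below the filter were not tested with the others. They include Il21, a helper T cell cytokine, the itch cytokine gene Il31 and its receptor chain Il31ra, the IL-17 receptor chains Il17rc and Il17rd, the chemokine genes Cxcl3, Cxcl9 and Cxcl15, and Tgfb2. Chosen after their values were seen, Il22ra1, an IL-22 receptor chain, and Il1rapl2 had TCR:HEL single-positive arrays above all others, as did 1.08% of all probe sets below the filter. Il22ra1 had 47.6, 38.6 and 30.2 there, against 15.1, 7.94 and 24.2 in TCR single-positive, 10.1, 9.33 and 6.26 in TCR:HEL double-positive and 11.5, 18.7 and 9.02 in TCR double-positive cells. In a fit without the filter its stage difference in TCR:HEL mice was 1.15 (adjusted p = 0.0781) and its difference between TCR:HEL and TCR single-positive cells 0.81 (adjusted p = 0.570). Il1rapl2 had 15.5, 34.5 and 40.3 in TCR:HEL and 7.40, 10.5 and 6.93 in TCR single-positive cells, at 0.89 (adjusted p = 0.418). All these signals were below their arrays' medians.

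Genes tied to the signalling of these receptors were read from 4 lists, which also hold ligands, antagonists and other receptors. Of their 160 genes, 58 were on the array and 47 passed. None was called between TCR:HEL and TCR cells at either stage or in the interaction, and 1 (2.13%) was called between the stages in each kind of mouse, against 1.98% of all probe sets in TCR:HEL and 3.53% in TCR mice. It was Gpr183 both times, a chemotactic receptor for oxysterols from the list of chemokine receptor signalling (16 of 45 genes on the array, 14 passed). Gpr183 had 2506, 1693 and 1373 in TCR:HEL single-positive cells, 821, 1451 and 1195 in TCR single-positive cells, 329, 275 and 269 in TCR:HEL double-positive cells, and 397, 438 and 467 in TCR double-positive cells. Every single-positive array was above every double-positive array. Gpr183 rose in single-positive over double-positive cells by 2.57 ± 0.28 in TCR:HEL mice (limma adjusted p = 0.000198) and by 1.35 ± 0.28 in TCR mice (adjusted p = 0.0130), and the interaction was 1.22 (adjusted p = 0.964). The call in TCR mice was lost when a TCR single-positive array was left out, replicate 2 (adjusted p = 0.0599) or 3 (0.0521), or TCR double-positive replicate 1 (0.0509).

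None of the 11 JAK-STAT genes on the array, among them Socs2, Socs4, Socs6 and Socs7, was called in any comparison, with a median stage difference of -0.07 in TCR:HEL and 0.02 in TCR mice. None of the 12 TNF and IL-1 receptor adaptor genes that passed was called. Their median stage difference was 0.37 in TCR:HEL and 0.09 in TCR mice, and the smallest adjusted p was 0.0652, for the stage in TCR mice. None of the 10 SMAD list genes that passed was called, with medians of -0.08 in TCR:HEL and 0.31 in TCR mice for the stage and -0.36 for TCR:HEL over TCR single-positive cells.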

How the data were processed

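Per the labels' protocols, biotin-labelled target was made from total RNA of 100000 to 1000000 cells by a small-sample assay. The deposited values are MAS5 signals, intensity values on a linear scale, per the submitters' processing notes, which give no version or settings. Trimmed by 2%, all arrays had a mean of 150, so the signals were used as scaled. The number of arrays limits the precision.

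Groups came from the sample titles. Genes came from the platform annotation, and all 48 symbols were unchanged in the RefSeq table. Of 22575 probe sets, 64 controls were removed and 13703 passed the filter. A limma 3.58.1 model (R 4.3.3) with 4 group means was fitted to log2(signal + 16) of all arrays, with empirical Bayes moderation by trend (8 residual and 7.01 prior degrees of freedom), two-sided tests and Benjamini-Hochberg adjustment within each contrast. It was also run on simulated data of independent noise, without effects of period, replicate or RNA quality. That run cannot show how the model handles such effects. Named by rule were called genes, the 5 of smallest p in each contrast, and the 10 of highest mean signal. Further genes were named outside this rule, Il22ra1 and Il1rapl2 after their values were seen. The genes, lists and tests were chosen with earlier results of these data known. Hybridization periods were parted by gaps of over 35 days in the deposited array records. Same-numbered replicates of the single-positive groups deviated together (r = 0.16, 0.20 and 0.19 over probe sets). In the other contrasts not every pair exceeded 0.1. In the single-positive groups the replicates 1 shared a hybridization period, as did the replicates 3, so for these the sharing cannot be told from pairing. The replicates 2, at r = 0.20, were hybridized in different periods, period 3 for TCR:HEL and period 2 for TCR mice. Whether the replicates were paired was not tested. The main fit was unpaired, and replicate number was a block only in an alternative run.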

Additional observations from a re-analysis of the deposited data

How the results depend on the processing

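No gene was called between TCR:HEL and TCR cells, between the stages in TCR:HEL mice or in the interaction under any alternative run: other pseudocounts, filters, scaling, variance model, groups in the fit, replicate or period blocks, probe set rules, and leaving out arrays. Between the stages in TCR mice the count of 1 became 2 (Acvrl1 and Ifnar1) with the replicate block, and Ifnar1 then had a limma adjusted p of 0.0367. Same-numbered replicates of these 2 groups deviated together at r = 0.048, 0.29 and 0.0054, so their pairing was not established. The count became 0 with period as a block, without the 3 arrays of lowest Gapdh ratio, and with periods parted by 30 days, an alternative chosen after seeing the data (Acvrl1 1.37, adjusted p = 0.144). Acvrl1 kept its call in 17 of 20 alternatives, leaving out any 1 of the 6 arrays of TCR mice included. Not all of these could change it. Acvrl1 has 1 probe set, so the probe set of median rank repeated the main fit. The mean of a gene's probe sets left its estimate unchanged. The signalling count of 1 in TCR mice became 2 with quantile normalization and with period as a block, 3 with the replicate block and 0 with periods parted by 30 days. It was 0 to 1 with 1 array left out, at 0 without TCR single-positive replicate 3 or TCR double-positive replicate 1. In TCR:HEL mice it was 1 to 2, at 2 without TCR:HEL double-positive replicate 1. Among the 30 genes and the signalling lists, the replicate block changed no other call. Il1rap reversed to 0.11 for the stage in TCR:HEL mice with the probe set of median rank. The causes were not tested. Over all probe sets, the 30 calls between TCR:HEL and TCR single-positive cells became 47 with the replicate block. They became 19 with the mean of a gene's probe sets, 16 without period 1 and 8 without the arrays of lowest Gapdh ratio. With 1 array left out they became 13 to 22. Both the run without period 1 and that without the arrays of lowest Gapdh ratio left out replicate 1 of both single-positive groups. In these cells the 2 runs cannot tell period from Gapdh ratio. The 484 calls of the stage in TCR mice became 626 with the replicate block, 303 with only these groups, 313 with period as a block, 240.0 with periods parted by 30 days, 320.0 without the arrays of lowest Gapdh ratio, and 293 to 417 with 1 array left out. Dim signals limit the 18 genes below the filter.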
